A study of Mus musculus with 2 samples.

Results

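miR-101a (mmu-miR-101a) and miR-101b (mmu-miR-101b) are a pair of mouse brain microRNAs (miRNAs) that differ by a single base, and they were 2 of the 558 known miRNAs that the study listed. Each was found as the tag, a distinct small RNA sequence with its read count, whose young and old counts matched the listed pair. All other tags with the same first 18 nucleotides (nt) were then added. A single tag gave the listed counts of 199 of the listed miRNAs, of which 173 were no star sequence, the less abundant strand of a precursor. The pair was chosen by its read counts in the young and old libraries, which were already known, so its old to young ratios are given as a description and without a test.

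Small RNAs of whole brain were sequenced from male C57BL/6J mice at 5 months (young) and at 24 to 25 months (old). Each age was 1 library, made by combining the cDNA libraries of 2 mice, so the spread between animals could not be measured. The young library held 4523267 reads and the old library 6658732, and tags were 17 to 26 nt long. All intervals are exact (Clopper-Pearson) 95% intervals, which cover counting error only and treat every read as independent. The reads carried no molecular identifiers, so PCR copies of a molecule were counted as separate reads and the intervals may be too narrow. In RNA of a whole brain, fewer cells that make a miRNA and less of it per cell cannot be told apart.

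A miRNA is cut from a hairpin precursor, first by Drosha in the nucleus and then by Dicer in the cytoplasm, and 1 strand is loaded into an Argonaute protein. Bases 2 to 8 of the loaded strand, the seed, pair with target mRNAs, so a miRNA that starts a base earlier or later presents another seed. Such variants are called 5′ isomiRs, while 3′ isomiRs differ at the other end, by trimming or by bases added after cutting that the genome does not hold (untemplated tails). miR-101 comes from the 3p arm of its precursors, where Dicer sets the 5′ end and Drosha the 3′ end. It is known for targeting Ezh2, a histone methyltransferase, and, in neural cells, App, the amyloid precursor protein, and Atxn1, the gene mutated in spinocerebellar ataxia type 1.

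The counted tags are shown first, because they set the reference ends used throughout, with the seed in capitals and each sequence written 5′ to 3′.
miR-101a: tACAGTACtgtgataactgaa
miR-101b: tACAGTACtgtgatagctgaa
Over these 21 nt the pair was identical at 20 positions and differed by A16G, with positions counted from 1 at the 5′ end and the base of miR-101a first. The difference lies outside the seed. Each counted tag matched the NCBIM37 (mm9) genome perfectly at 1 place. The miR-101a tag lay at chr4:101019562-101019582 on the minus strand, inside the Mir101a precursor (chr4:101019550-101019632), which the annotation places in an exon of the processed transcript E130102H24Rik on the same strand. The miR-101b tag lay at chr19:29209829-29209849 on the plus strand, inside the Mir101b precursor (chr19:29209769-29209865), in an intron of Rcl1 on the same strand. The most frequent tags with another 5′ end are shown next, because they carry the shifted seeds.
miR-101a, starting 1 base earlier: gTACAGTActgtgataactga
miR-101b, starting 1 base earlier: gTACAGTActgtgatagctga
miR-101b, starting 1 base later: aCAGTACTgtgatagctgaagt
In the last of these the final T is untemplated.

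The counted miR-101a tag had 6883 reads in the young library and 5025 in the old, or 1522 and 755 reads per 1000000 reads of each library (RPM). The counted miR-101b tag had 1620 and 1165 reads, or 358 and 175 RPM. Both were thus lower in the old library, by a log2 ratio (old to young) of -1.01 (-1.06 to -0.96) for miR-101a and -1.03 (-1.14 to -0.92) for miR-101b. Both values lay just beyond a 2-fold difference, a mark that 26.0% of the 173 counted miRNAs reached in that direction. Of the same miRNAs, 80.3% were lower in the old library to some extent, with a median log2 ratio of -0.60. The counted tag was a small portion of each miRNA, however.

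All tags with the first 18 nt of miR-101a summed to 35377 reads in the young library and 27177 in the old, or 7821 and 4081 RPM. For miR-101b the sums were 17816 and 14879 reads, or 3939 and 2235 RPM. The log2 ratio of these sums was -0.94 (-0.96 to -0.92) for miR-101a, a ratio of 0.522, and -0.82 (-0.85 to -0.79) for miR-101b, a ratio of 0.567. On this measure neither miRNA was past 2-fold, against 26.0% of the 173 miRNAs that were, while 79.2% were lower and the median log2 ratio was -0.59. These sizes depend on how the libraries are scaled. Both miRNAs were past 2-fold when scaled by known-miRNA reads (-1.15 and -1.03), as were 68 of the 173. Known-miRNA reads here are the summed reads of the counted tags of the 199 miRNAs, not all reads of known miRNAs. Both were also past 2-fold after a linear correction for GC content (-1.49 and -1.17), for which the share of the 173 was not counted. TMM factors, which centre the bulk of the miRNAs, gave -0.41 for miR-101a and -0.29 for miR-101b, and DESeq2 size factors gave -0.32 and -0.20, while the share of the 173 miRNAs lower in the old library became 54.3% and 47.4% and the median log2 ratio -0.06 and 0.03. A change of depth moves all ratios alike, so it cannot alter the place of the pair among the miRNAs. Ranked by reads among the 168 distinct starts of these miRNAs, miR-101a stood 13th in the young library and 19th in the old, and miR-101b 29th and 31st. The young library held 1.99 (1.95 to 2.02) miR-101a reads for each miR-101b read, and the old library 1.83 (1.79 to 1.86).

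Most reads of both miRNAs had other ends than the counted tag. Reads were assigned to the 3p arm of each precursor when at least 16 templated bases matched, with the 5′ end shifted by up to 5 bases and up to 3 untemplated bases at the 3′ end. The miR-101a arm held 74769 young and 60728 old reads, and the miR-101b arm 26159 and 22628. The counted miR-101a tag was 9.21% (8.999 to 9.415) of its arm in the young library and 8.27% (8.06 to 8.50) in the old, and ranked 4th by reads in both. The counted miR-101b tag was 6.19% (5.90 to 6.49) and 5.15% (4.86 to 5.44) of its arm, and ranked 5th and 6th. Over the whole arm, miR-101a stood at 16530 RPM in the young library and 9120 in the old, a log2 ratio of -0.86. miR-101b stood at 5783 and 3398 RPM, a log2 ratio of -0.77. The summed level of both arms was 22313 RPM in the young library and 12518 in the old, a ratio of 0.561.

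Among tags with the counted start, the counted tag of miR-101a held 19.5% (19.0 to 19.9) of the reads in the young library and 18.5% (18.0 to 19.0) in the old. For miR-101b the shares were 9.09% (8.67 to 9.52) and 7.83% (7.40 to 8.27). The median over the 150 miRNAs with at least 100 reads in each library was 37.2% in the young library and 34.9% in the old. In both libraries 112 of these miRNAs had a higher share than miR-101a, and 136 in the young and 139 in the old had a higher share than miR-101b. The reads with the miR-101a start were spread over 194 distinct tags in the young library and 166 in the old, of which 79 and 60 were read once.

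Most miR-101a reads in both libraries did not start at the counted base. Reads that started 1 base earlier, at a templated G, numbered 39350 in the young library and 33395 in the old, which was 52.6% and 55.0% of the arm. Reads with the counted start numbered 35186 and 27096, or 47.1% and 44.6%. A start 1 base later was rare, at 131 and 142 reads, or 0.175% and 0.234%. In miR-101b the order was the other way round. The counted start led with 17711 young and 14841 old reads, or 67.7% and 65.6%. The start 1 base earlier followed with 7242 and 6470 reads, or 27.7% and 28.6%. The start 1 base later was more frequent than in miR-101a, at 1120 and 1257 reads, or 4.28% and 5.56%.

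**Figure D1:**
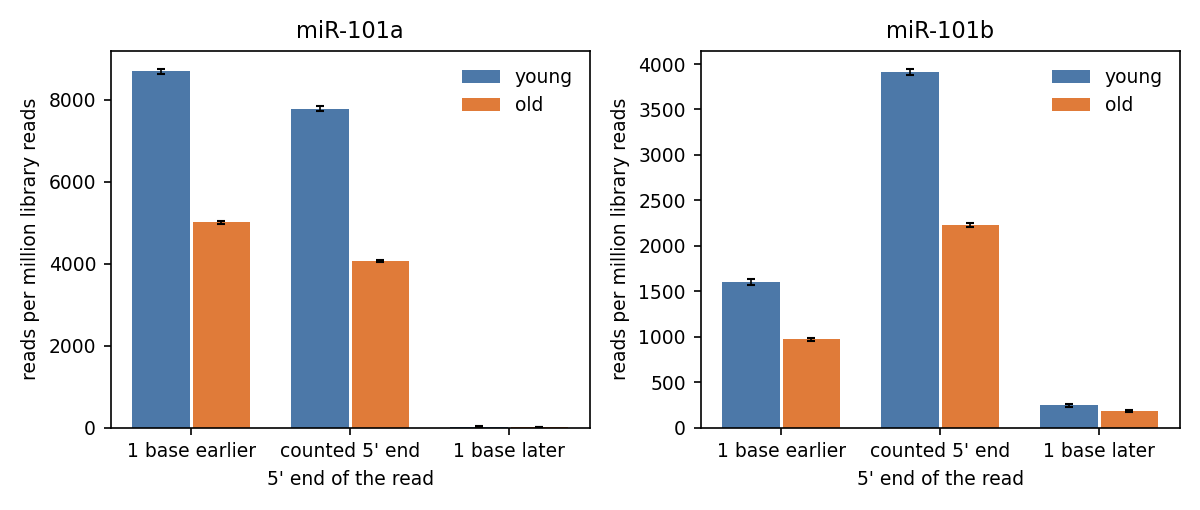
Level of the reads of each 3p arm (y axis, RPM, with its own scale for each miRNA) by 5′ end (x axis) in the young and old libraries, where error bars are the exact 95% intervals of the share of arm reads drawn on this scale. In miR-101a the start 1 base earlier is the highest bar (8699 young, 5015 old), in miR-101b the counted start (3916 and 2229), and each old bar is below its young bar, which for the start 1 base later turns under TMM and DESeq2 factors.

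The share of reads with any 5′ end other than the counted one was 52.9% (52.6 to 53.3) for miR-101a in the young library and 55.4% (55.0 to 55.8) in the old, 2.44 percentage points higher (standard error 0.272, counting only). For miR-101b it was 32.3% (31.7 to 32.9) and 34.4% (33.8 to 35.0), 2.12 points higher (standard error 0.428). Both differences exceeded their counting error, but without a replicate library they could not be set against the spread between animals. Over the 150 miRNAs the median difference between the libraries was 0.0647 points, 93 had a higher share in the old library and 55 a lower one, and the difference was larger than that of miR-101a in 9 and than that of miR-101b in 12.

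Both miRNAs stood near the top of the brain miRNAs in this measure, which takes the start of the counted tag as its reference. For miR-101b a reference entry given below starts 1 base earlier, and against that start its share would be another. The median share of reads with another 5′ end was 1.36% in the young library and 1.51% in the old over the 150 miRNAs. Only 4 of them had a higher share than miR-101a and 7 a higher share than miR-101b, in each library. The 4 were miR-142-5p (75.05% young, 82.7% old), miR-770-3p (72.2% and 70.2%), miR-300 (65.7% and 60.7%) and miR-411 (57.8% and 65.9%). For a start exactly 1 base earlier, only miR-411 (57.1% and 65.6%) had a larger share than miR-101a. These 4 miRNAs were named after their values had been seen.

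**Figure D2:**
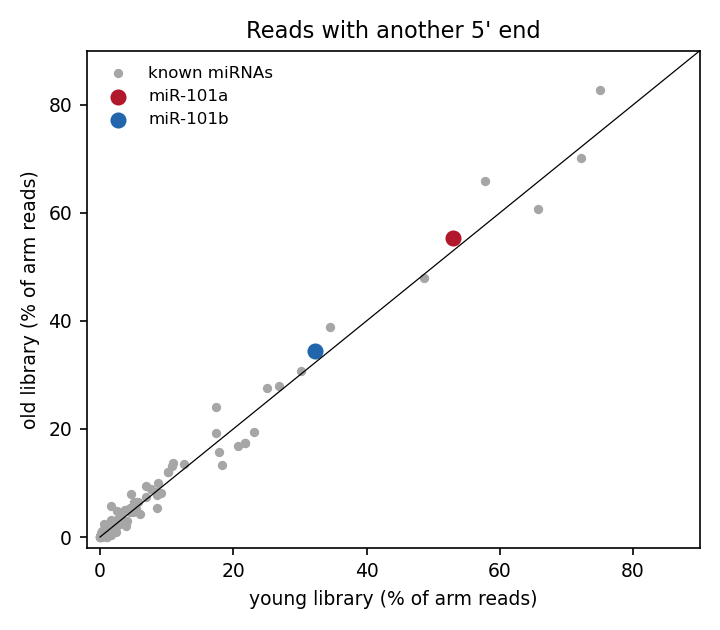
Share of arm reads whose 5′ end differs from the counted tag in the young (x axis, percent) and old (y axis, percent) libraries for 150 known miRNAs, each a point, with a line where the libraries are equal. miR-101a (52.9% young, 55.4% old) and miR-101b (32.3% and 34.4%) lie far above the medians of 1.36% and 1.51%.

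Counted by seed over both precursors, the pair gave nearly as many reads with a shifted seed as with the counted one. The seed of the start 1 base earlier, UACAGUA, was read 46592 times in the young library and 39865 times in the old, which was 46.2% and 47.8% of all miR-101 reads. The counted seed, ACAGUAC, was read 52897 and 41937 times, or 52.4% and 50.3%. The seed of the start 1 base later, CAGUACU, was read 1251 and 1399 times, or 1.24% and 1.68%. The log2 ratio of old to young was -0.78, -0.89 and -0.40 for these seeds in that order, and the last turned to 0.13 with TMM and 0.22 with DESeq2 factors.

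The log2 ratio varied with the 5′ end within each miRNA, in the same order in both. In miR-101a the start 1 base earlier went from 8699 RPM in the young library to 5015 in the old, a log2 ratio of -0.79 (-0.82 to -0.77). The counted start went from 7779 to 4069 RPM, -0.93 (-0.96 to -0.91), and the start 1 base later had a ratio of -0.44 (-0.79 to -0.09). In miR-101b the start 1 base earlier went from 1601 to 972 RPM, -0.72 (-0.77 to -0.67), the counted start from 3916 to 2229, -0.81 (-0.84 to -0.78), and the start 1 base later from 248 to 189, -0.39 (-0.51 to -0.27). All 6 forms were lower in the old library by total reads, but under TMM and DESeq2 factors the start 1 base later was higher (0.08 and 0.18 for miR-101a, 0.13 and 0.23 for miR-101b) while the other 4 remained lower. Of the 173 miRNAs, 79.2% were lower by total reads, 54.3% under TMM and 47.4% under DESeq2 factors. Of these 3 starts the counted one had the lowest ratio in each miRNA, while rarer starts varied more, as in miR-101b reads starting 2 bases later (73 young and 46 old reads, -1.22, -1.79 to -0.67). The intervals of the counted start and of the start 1 base earlier did not overlap in either miRNA, while in miR-101a that of the start 1 base later overlapped with that of the start 1 base earlier. Overlap was not examined in the other miRNAs, so it is not known how common this is. With this many reads, small differences also separate intervals of counting error.

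Single tags showed the same direction. Of the 373 distinct tags of the miR-101a arm, 33 had at least 100 reads in both libraries together and held 97.8% of the reads. All 33 had a lower RPM in the old library, with log2 ratios from -1.48 to -0.14 and a median of -0.86, and the interval lay below 0 in 31. Of the 349 tags of the miR-101b arm, 27 reached this minimum and held 96.0% of the reads. All 27 were lower in the old library, from -1.21 to -0.27 with a median of -0.77, and the interval lay below 0 in 26. Beside these, 79.2% of the 173 miRNAs were lower by total reads, counted over all tags of the start. How many of the 173 had an interval below 0 was not counted, and the intervals of the tags were taken by total reads only. A difference of 2-fold or more was seen in 11 of the 33 tags and 4 of the 27, beside 26.0% of the 173 miRNAs. Under TMM factors 28 of the 33 and 22 of the 27 tags were lower, beside 54.3% of the 173 miRNAs. Under DESeq2 factors 26 and 20 tags were lower, beside 47.4%. The tags of each miRNA come from the same pair of libraries and are not independent measurements.

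**Figure D3:**
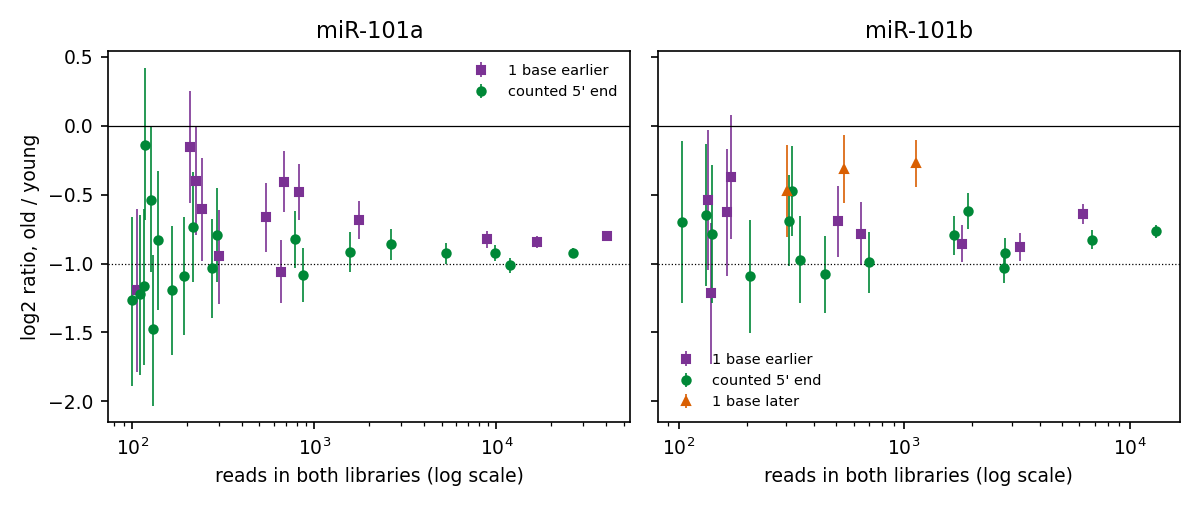
Log2 ratio of old to young RPM (y axis) against the reads of both libraries (x axis, log scale) for the miR-101a and miR-101b tags with at least 100 reads in both libraries together, marked by 5′ end, with exact 95% intervals for counting error and a dotted line at 2-fold lower. By total reads all 33 miR-101a tags and all 27 miR-101b tags lie below 0 (26 and 20 under DESeq2 factors), around medians of -0.86 and -0.77. Of the 173 known miRNAs, 79.2% were lower by total reads and 47.4% under DESeq2 factors.

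At the 3′ end the miRNAs differed from each other more than the ages did. The most frequent tags with the counted 5′ end are shown because they end at different bases in the pair.
miR-101a, most frequent with the counted start: tACAGTACtgtgataactga
miR-101b, most frequent with the counted start: tACAGTACtgtgatagctgaag
The miR-101a tag is 20 nt long, ends 1 base before the counted end and had 14737 young and 11462 old reads. The miR-101b tag is 22 nt long, ends 1 templated base after it and had 7028 and 6084 reads. The counted miR-101b tag, with 1620 and 1165 reads, was only the 4th most frequent of its start by the reads of both libraries.

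The last templated base of miR-101a reads with the counted start was the counted end in 49.1% (young) and 48.1% (old), 1 base before it in 43.4% and 44.0%, and 1 base after it in 5.16% and 5.30%. In miR-101b reads with the counted start it was 1 base after the counted end in 44.98% and 46.6%, 1 base before it in 22.9% and 23.0%, and the counted end itself in 21.6% and 19.1%. The mean position of the last templated base, with 0 at the counted end, was -0.436 nt in the young library and -0.446 nt in the old for miR-101a. For miR-101b it was 0.268 and 0.304 nt. The old minus young difference was -0.0103 nt (standard error 0.00538, counting only) for miR-101a, within 2 standard errors of 0, and 0.0361 nt (standard error 0.0120) for miR-101b. The median of this difference over the 150 miRNAs was -0.00641 nt.

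The 3′ end also moved with the 5′ end. miR-101a reads that started 1 base earlier ended 1 base before the counted end more often than those with the counted start, in 56.6% of them in the young library and 56.4% in the old. miR-101b reads did so too, in 49.97% and 52.2%, and ended at the counted end in 44.1% and 40.3%. miR-101b reads that started 1 base later ended 1 base after the counted end in 69.8% and 74.6%. An earlier start thus went with an earlier end in both miRNAs, and a later start with a later end in miR-101b, in both libraries. Mean lengths of miR-101a reads were 21.6 nt in both libraries for those starting 1 base earlier, 21.0 nt for the counted start, and 20.3 and 20.4 nt for the rare start 1 base later. In miR-101b they were 21.8 and 21.7 nt for the earlier start, 21.5 and 21.6 nt for the counted start and 21.6 nt in both libraries for the later start.

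**Figure D4:**
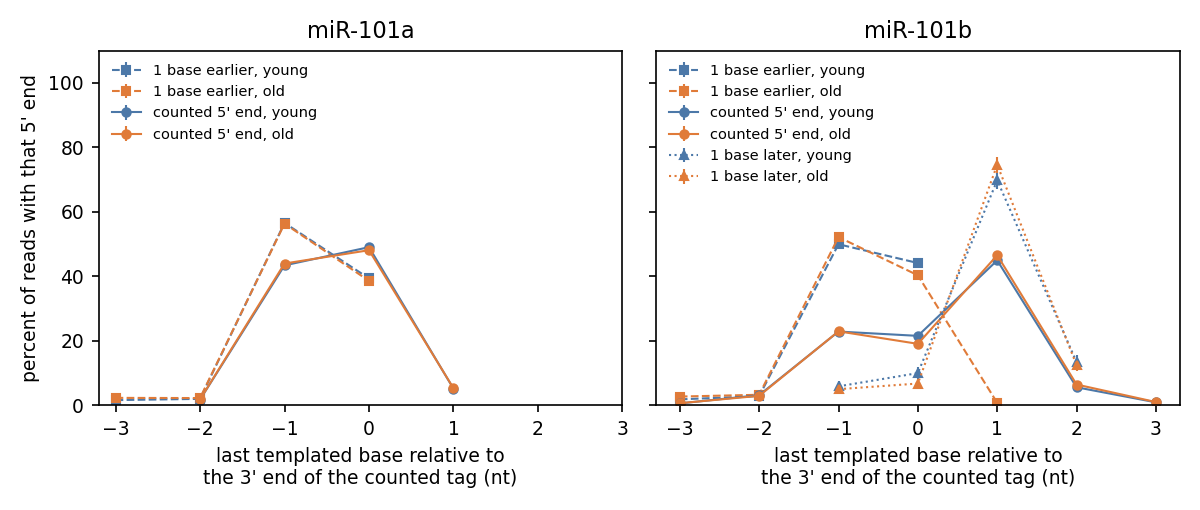
Share of reads (y axis, percent of the reads with that 5′ end) by the last templated base (x axis, nt from the 3′ end of the counted tag) in the young and old libraries, with exact 95% intervals for counting error. The counted start and the start 1 base earlier are drawn for both miRNAs, the start 1 base later for miR-101b only, and the rarest ends are left out. miR-101a reads end mainly at or 1 base before the counted end, while 44.98% (young) and 46.6% (old) of the miR-101b reads with the counted start end 1 base after it.

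Untemplated tails were common on both miRNAs. An untemplated tail was found on 33.0% (young) and 33.2% (old) of the miR-101a reads with the counted start, and on 19.2% and 19.9% of those that started 1 base earlier. In miR-101b it was found on 20.7% and 20.2% of the reads with the counted start and on 28.0% and 27.6% of those starting 1 base earlier. The median over the 150 miRNAs was 16.3% in the young library and 18.2% in the old. At the counted start and the start 1 base earlier, the first tail base was mostly A. It was A on 20.6% (young) and 20.7% (old) of the miR-101a reads with the counted start and T on 10.4% and 10.5%. For miR-101b with the counted start it was A on 11.2% and 10.2% and T on 8.77% and 8.89%. Reads of miR-101b that started 1 base later had a tail in 57.9% and 58.8%, and a tail that began with T in 51.1% and 53.5% of all reads of that start. The 3′ adapter that was trimmed from the reads also begins with T, and a tail T was not told apart from a base of adapter left on the read. An added base that equals the genome was counted as templated.

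Both miRNAs are poor in G and C, and the ratio between the libraries varied with base composition over all known miRNAs. The least-squares slope over the 173 miRNAs was -0.41 on the log2 scale for each 10 percentage points of GC content. miR-101a has 33.3% GC, and the 28 other miRNAs within 5 points of it had a median log2 ratio of -0.004, from -1.04 to 1.12. Of these, 14 were lower in the old library and 2 were lower by at least 2-fold, and 2 had a lower ratio than miR-101a at -0.94. miR-101b has 38.1% GC, and the 53 other miRNAs within 5 points had a median of -0.20, with 32 lower, 3 lower by at least 2-fold and 5 with a ratio below the -0.82 of miR-101b. These counts are a description of the libraries, and the part of base composition in the ratios was not tested.

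**Figure D5:**
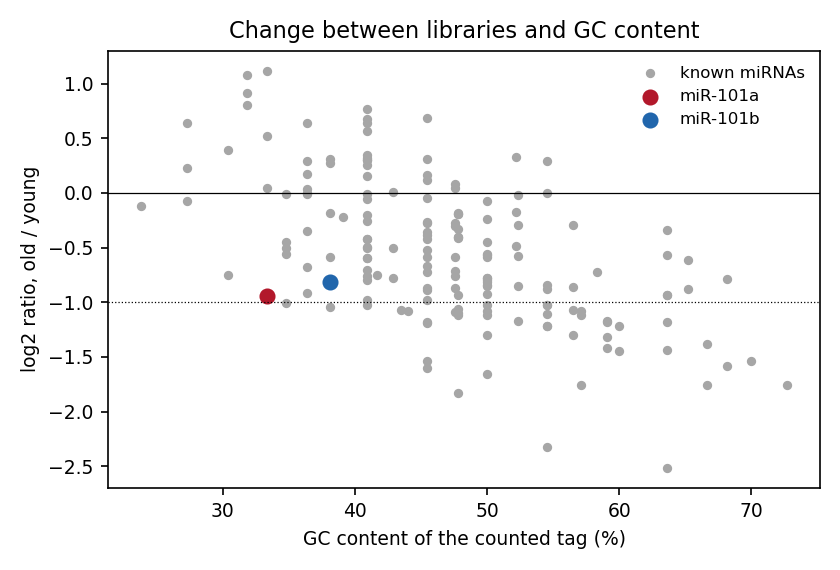
Log2 ratio of old to young RPM over all tags with the same first 18 nt (y axis) against the GC content of the counted tag (x axis, percent) for the known miRNAs, with a solid line at 0 and a dotted line at 2-fold lower. miR-101a (33.3% GC, -0.94) and miR-101b (38.1% GC, -0.82) lie among the lowest points near their GC content.

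The miRNAs nearest to miR-101a in log2 ratio, among those with at least 1000 reads in both libraries together, were miR-3107 and miR-486, which were counted by the same tag (1405 young and 1084 old reads, -0.93), and miR-672 (2643 and 2044 reads, -0.93). miR-486 is abundant in red blood cells. Those nearest to miR-101b were miR-218 (547 and 457 reads, -0.82), miR-125a-5p (1723 and 1445 reads, -0.81) and miR-148b (876 and 741 reads, -0.80). miR-218 is enriched in neurons. Likeness in 1 ratio between 2 libraries says nothing of shared control.

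Other cell types and other miRNAs of the tissue were set beside the pair by short lists of known markers. Of the 8 neuron-enriched miRNAs, all were counted and 7 were lower in the old library, 1 of them, miR-124, by at least 2-fold (-1.21), beside 79.2% lower and 26.0% lower by at least 2-fold over all 173 miRNAs. Their median log2 ratio was -0.66, against -0.59 over all of them, and their summed level was 74835 RPM in the young library and 38197 in the old. Most of this sum was miR-124 (39418 young and 17001 old) and miR-128 (22807 and 13512), while miR-137 was nearly level (-0.01) and miR-153 higher (0.18). The 2 counted erythroid miRNAs of 3, miR-451 and miR-486, summed to 566 and 298 RPM, with a median of -0.92. The star sequence of the uncounted miR-144, miR-144*, was not on the list and went the other way. Over all tags of its start it stood at 17.2 RPM in the young library and 22.5 in the old (0.39), but its counted tag alone was lower (-0.12). The 2 listed oligodendrocyte miRNAs, miR-219-5p and miR-338-3p, summed to 1256 and 640 RPM, with a median of -0.88 and 1 lower by at least 2-fold. The 3p arm of miR-219, miR-219-3p, was not on the list. It stood far above that sum, at 11010 RPM in the young library and 7336 in the old, with a log2 ratio of -0.59, as in the median over all 173. The 1 counted endothelial miRNA of 2 stood at 52.8 and 46.6 RPM (-0.18), and miR-204, abundant in the choroid plexus, at 67.2 and 22.2 (-1.60). Under DESeq2 factors 4 of the 8 neuron-enriched miRNAs were lower, beside 47.4% of all 173, and the endothelial miRNA was higher (0.44). No counted marker was at 0 in either library. The part of any of these cell types in the miR-101 ratios was not tested.

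The reference sequences of RefSeq (GRCm38.p6) are shown because they place the ends of the pair differently from the counted tags.
miR-101a-3p: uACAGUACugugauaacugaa
miR-101b-3p: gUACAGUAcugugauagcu
miR-101c: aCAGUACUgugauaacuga
miR-144-3p: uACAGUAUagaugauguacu
The miR-101a entry equals the counted tag. The miR-101b entry starts 1 base earlier and is shorter, so exactly that sequence was read 84 times in the young library and 80 times in the old, while all tags with its first 18 nt had 7300 and 6487 reads. The miR-101c entry equals a miR-101a tag that starts 1 base later, with 40 young and 45 old reads. It matched NCBIM37 perfectly at 9 places, 1 at Mir101a on chromosome 4 and 8 on chromosome 9, and the reads of these places cannot be told apart. miR-144, an erythroid miRNA, shares the first 7 bases of miR-101a, but the sequences then diverge, and all tags with the start of miR-144-3p had only 179 and 157 reads.

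Since 1 base separates the pair, a read error at that base would move a read from one to the other. Reads with the miR-101a start and another substitution at the same base numbered 19 young and 30 old for A16C and 58 and 73 for A16T. A-to-G changes at the 5 other A positions examined ranged from 13 to 106 reads in the young library and from 9 to 31 in the old, at most 0.595% and 0.208% of the miR-101b reads of the same start. The most frequent of the 53 other kinds of substitution, T11G, had 426 and 800 reads, or 2.39% and 5.38% of the miR-101b reads. Only 2 young reads and 1 old read matched both members equally well.

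The libraries differed in undetermined bases, which take a read out of its tag. An undetermined base was present in 4.57% of all young and 1.07% of all old reads. Within the first 18 nt it was found in 4.16% of the young and 0.908% of the old miR-101a reads, and in 4.14% and 0.800% of those of miR-101b. In the young library 93.9% and 93.5% of these lay at position 2. With such reads counted, the log2 ratio became -0.99 for miR-101a and -0.87 for miR-101b. The share of undetermined bases was close for reads starting 1 base earlier (4.18% young, 0.896% old) and for the counted start (4.18% and 0.911%) of miR-101a.

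The other arm of both precursors, whose strand is usually discarded, was almost unread. The 5p arm of miR-101a had 2 reads in each library, against 74769 and 60728 reads of the 3p arm, an upper 95% limit of 0.00966% and 0.0119% of the 3p reads. The 5p arm of miR-101b had 0 reads in either library, which at a floor of 3 reads allows up to 0.0115% and 0.0133% of the 3p reads, and up to 0.0141% and 0.0163% by the exact 95% limit. Folded with RNAfold, the Mir101a hairpin of 83 nt had a minimum free energy of -47.0 kcal/mol with 20 of the 21 counted bases paired, and the Mir101b hairpin of 97 nt had -39.6 kcal/mol with 21 of 21 paired. The base before the counted start is G in both genes, paired in the fold of Mir101a and unpaired in that of Mir101b.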

How the data were processed

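The authors removed the 3′ adapter with up to 3 mismatches from 36-nt Illumina reads, aligned them to mm9 with SOAP (version not given in the sources used here), merged identical reads into tags and deposited the unscaled counts of reads per tag. Small RNAs had been excised from a gel by length. Unaligned reads were not used here.

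Counts were divided by the total reads of each library. Known miRNAs were assigned through the counts in the study's list where a single tag held both, star sequences were left out, and at least 10 reads in a library were required. With 1 library per age no test was made. edgeR 4.0.16 (TMM) and DESeq2 1.42.0 (size factors), under R 4.3.3, gave other scalings only. A count of 0 was set to 0.5 and floors rest on 3 reads. Tags were matched to NCBIM37, with at most 5 undetermined bases where these were matched. RNAfold 2.7.2 folded the precursors at 37 °C. The rest used Python 3.11.15, numpy 2.4.6, scipy 1.17.1, pandas 2.3.3 and matplotlib 3.10.9. The assignment of tags and the ratios were tested on simulated data.

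The named miRNAs were the pair, their 5p arms, the 3 miRNAs nearest to each in log2 ratio with at least 1000 reads in both libraries together, miR-144, and short lists of neuron-enriched, erythroid, oligodendrocyte, endothelial and choroid plexus miRNAs. miR-219-3p and miR-144* were on no list and were added after their values had been seen. The members, lists and alternatives were chosen with earlier results of these data known. The alternatives were other depths, other ways of counting a miRNA and a linear correction for GC content.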

Additional observations from a re-analysis of the deposited data

How the results depend on the processing

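The old library was lower for both miRNAs under every scaling and counting tried, but the size varied. For miR-101a, at -0.94 with all tags of the start and total reads, the log2 ratio was -1.01 for the counted tag alone, -0.99 with undetermined bases matched, -0.91 with 1 substitution allowed and -0.86 with 5′ isomiRs added. Scaled by known-miRNA reads it was -1.15, and by a library total reduced for let-7 it was -0.73. It was -0.41 by TMM, -0.32 by DESeq2 size factors and -1.49 after the GC correction. The let-7 reduction subtracted only the tag counted for each let-7 miRNA, so other let-7 reads stayed in the total. For miR-101b, at -0.82, the values in the same order were -1.03, -0.87, within counting error for 1 substitution, -0.77, -1.03, -0.61, -0.29, -0.20 and -1.17. Of the 173 miRNAs, 45 were at least 2-fold lower with total reads and 68 with known-miRNA reads. This number was 21 with the let-7 reduction, 11 with TMM and 7 with DESeq2 factors. Relative to total reads these scalings moved every log2 ratio by -0.21, 0.21, 0.53 and 0.62. The 5′ isomiR shares kept their direction under all alternatives, and matching undetermined bases, an alternative chosen after seeing the data, gave differences of 2.44 and 2.10 points. No paired analysis was possible because each age was 1 library and no replicate could be left out. Shares within an arm do not depend on the depth used, and the 5p arms were too rarely read to compare.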
